A study of Mus musculus with 6 samples.

Results

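The proteasome subunit genes are the 40 protein-coding rows, of 53953 in all, whose symbol is Psma, Psmb, Psmc, Psmd or Psme followed by a number, with the interferon-inducible Psmb8, Psmb9 and Psmb10 left out. The rule used names and no measured value. Rows whose symbol goes on after the number, such as Psme2b, and pseudogenes were not members. The members fell into 8 subunits of the alpha ring, 4 beta subunits without an active site, 3 with one, the thymic Psmb11, 6 ATPases, 3 other base subunits, 8 lid subunits, 3 assembly chaperones of the base and 4 activators.

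The proteasome is the protease that degrades proteins tagged with ubiquitin. Its 20S core is a barrel of stacked alpha and beta rings, with the active sites of Psmb5, Psmb6 and Psmb7 inside, and the 19S cap on its end binds the tagged protein, removes the ubiquitin, unfolds the chain with a ring of ATPases and feeds it in. Activators of the Psme family can take the place of the cap, and interferon replaces the catalytic subunits with Psmb8, Psmb9 and Psmb10, which together form the immunoproteasome. When proteasome activity is short, the transcription factor NRF1 (gene Nfe2l1) is known to raise the subunit genes together through the antioxidant response element, which the related factor NRF2 (gene Nfe2l2) also binds.

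Gene expression was measured by RNA sequencing in organoids, cultures of epithelium that grow from stem cells in Matrigel, derived from proximal small intestine (wild-type C57BL/6 mice) and used at passage 3 to 5. One group of 3 libraries came from organoids given arachidonic acid, a polyunsaturated fatty acid, for 3 days before passaging. The other 3 came from organoids given the vehicle, 0.1% ethanol, and RNA of both groups was taken on day 3 after passaging. No source used here gives the dose or the number of mice. Nothing says that libraries came from separate cultures, so the spread behind the p-values is that between libraries and may be technical.

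The deposited values are FPKM, fragments per kilobase of gene and scaled to the fragments of the library. Depth recovered from the steps between low values was 35.6 to 50.8 M (1000000) fragments per library. Arachidonic acid library 1 stood apart: on the first principal component of all tested genes, which held 85.2% of the variance, it lay at 10.2, against 58.1 and 54.6 for the other arachidonic acid libraries and -41.6 to -40.4 for the vehicle libraries. Counts are therefore given with and without it. Epithelial markers were high in every library, with sums of 3726 to 4383 FPKM after arachidonic acid and 2684 to 2774 FPKM in vehicle. The 6 markers split: the keratins Krt8 (log2 fold change 1.10) and Krt19 (0.96) were called higher and Epcam (-0.62) and Cdx2 (-0.34) lower, the lower calls of both being lost without arachidonic acid library 2 or 3 or vehicle library 1 or 2. Summed markers stayed under 0.7 FPKM for fibroblasts without Vim, immune cells without Cd68, and endothelium, and Cdh5, an endothelial marker, was listed at 0 throughout. Vim fell, with 1.46, 0.623 and 0.373 FPKM after arachidonic acid against 4.51, 5.66 and 4.13 FPKM in vehicle, and Cd68 had 3.52, 23.9 and 16.8 FPKM after arachidonic acid against 2.14, 2.02 and 1.53 FPKM in vehicle. Mitochondrial genes took 2.21% to 2.66% of the fragments after arachidonic acid and 3.18% to 4.17% in vehicle. The part of these differences in the results was not tested.

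Most proteasome subunit genes differed little between the groups, and the changes that passed were mainly small rises in the 19S cap and opposite changes among the activators. Of the 40 members, 38 had a mean of at least 1 FPKM and were tested on log2(FPKM + 1) with limma, with Benjamini-Hochberg adjustment across the 12913 genes tested. At an adjusted p under 0.05, 11 members were higher after arachidonic acid, 28.9% of the 38, against 20.8% of all tested genes. Another 2 were lower, 5.26%, against 19.4% of all tested genes, and 25 did not pass. The groups did not overlap in 15 members that were higher (39.5%, against 27.6% of all tested genes) and in 3 that were lower (7.89%, against 27.5%). In bulk RNA, fewer cells of a type and less RNA per cell cannot be told apart.

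The size of the changes was small beside that of other genes. The median log2 fold change of the members was 0.12 with an SD of 0.25 over the members, against -0.03 and 0.72 over all tested genes. Only 3 members, Psme1, Psme2 and Psme4, differed by at least 0.5 on the log2 scale (7.89%), against 26.9% of all tested genes, and 25 members lay within 0.2 of 0. Without arachidonic acid library 1 the same 11 members were higher, against 27.5% of all genes then tested, and 6 were lower, against 32.4%. The 4 added to the lower side were Psma7, Psmb6, Psmc3 and Psmc5, and the median became 0.07. Fewer members, and fewer genes in all, passed with other libraries left out. Without arachidonic acid library 3, 5 of 38 members were higher, against 1712 of all 12916 genes tested. Without vehicle library 1 it was 6 members, against 1724 of 12926 genes. Without vehicle library 2 it was 4 members, against 1818 of 12925 genes. The share of higher members was then near that of all tested genes or below it. Both members outside the test were near 0: Psma8, an alpha subunit of the testis, was listed at 0 in all 6 libraries, and Psmb11, the catalytic subunit of the thymus, had at most 0.0171 FPKM, or 2 fragments.

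**Figure D1:**
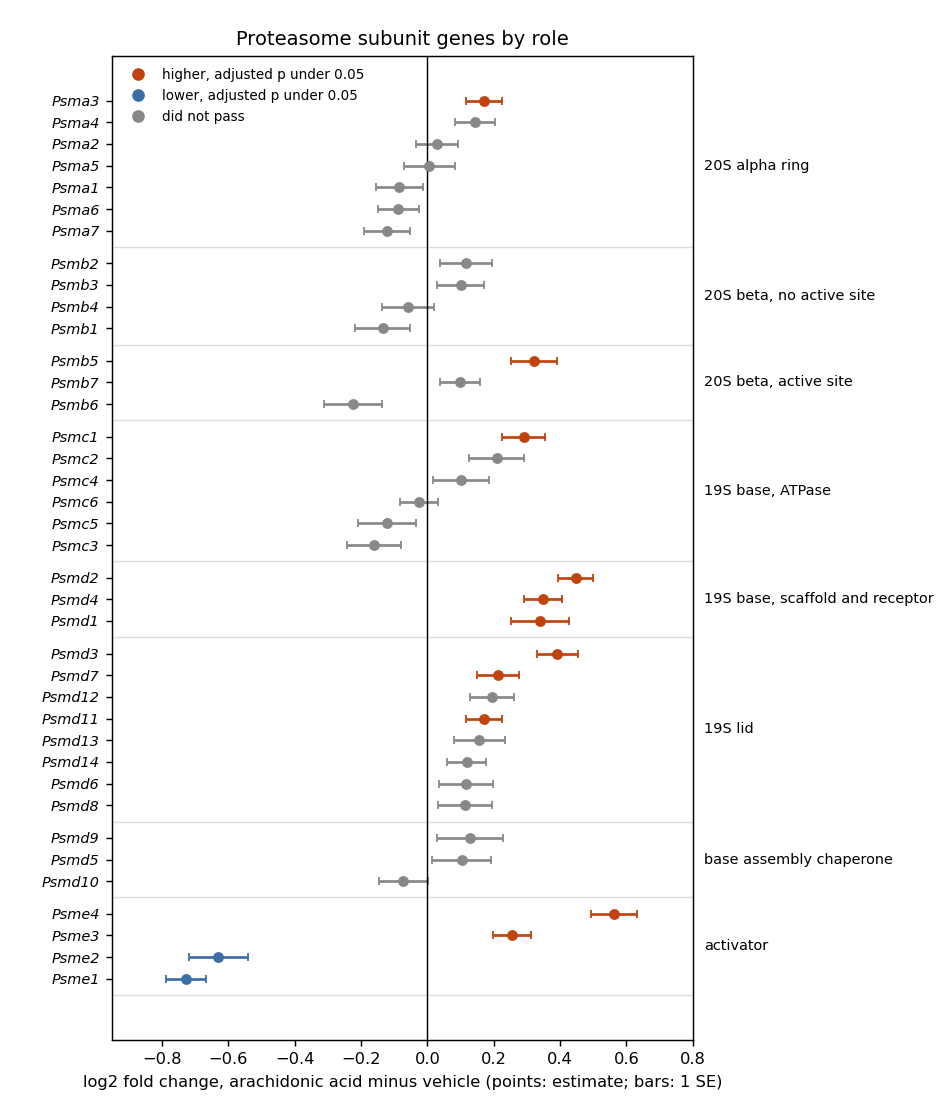
Log2 fold change of the 38 tested proteasome subunit genes, arachidonic acid minus vehicle, in groups by role; points are limma estimates on log2(FPKM + 1) and bars 1 SE (3 libraries per group). The 3 base members that are not ATPases and all 8 lid members lie right of 0, while Psme1 and Psme2 lie far left at -0.73 and -0.63.

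The promoters of the members were searched for the letters bound by factors known for these genes. RefSeq promoters (assembly GRCm38.p6, 250 bases before to 50 after the start) were matched for 33 of the 40 members, and both strands were read. A member was counted once if any of its promoters matched, while the shares of all promoters and of those of tested genes count each promoter. The units thus differ for every motif, and a member with several promoters had more chances to match. No source used here names the build behind the deposited values. The core of the antioxidant response element, TGACNNNGC, was in 6 members' promoters, 18.2%, against 12.4% of all 32851 promoters and 14.5% of those of tested genes. Those members were Psmb5 and Psme4, which rose, and Psmb6, Psmc6, Psmd9 and Psmd12, which did not pass. The 2 matches in members that rose are shown with the core in capitals; the Psmb5 match begins 47 bases before the start, at chr14:54618009-54618067 (minus strand), and the Psme4 match begins 7 bases before it, read on the opposite strand, at chr11:30771743-30771776 (plus strand).
Psmb5: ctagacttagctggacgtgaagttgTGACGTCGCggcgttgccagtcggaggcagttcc
Psme4: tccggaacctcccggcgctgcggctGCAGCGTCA

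The ETS site CCGGAAG had a larger share, 12 members or 36.4%, against 8.86% of all promoters and 18.4% of those of tested genes. Of the members with a matched promoter, it was in 6 of the 9 that rose (Psmc1, Psmd2, Psmd4, Psmd11, Psme3 and Psme4) and in 6 of the 21 that did not pass. The 4 shown are those of the members with the largest rises among them, with the site in capitals (CTTCCGG where it is on the opposite strand). They lie at chr11:30771697-30771753 (plus strand) for Psme4, chr16:20651601-20651651 (plus strand) for Psmd2, chr3:95042708-95042764 (minus strand) for Psmd4 and chr12:100110149-100110201 (plus strand) for Psmc1.
Psme4: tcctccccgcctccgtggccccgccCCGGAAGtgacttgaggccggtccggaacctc
Psmd2: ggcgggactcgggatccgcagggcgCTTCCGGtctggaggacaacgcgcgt
Psmd4: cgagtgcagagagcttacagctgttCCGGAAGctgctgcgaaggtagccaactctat
Psmc1: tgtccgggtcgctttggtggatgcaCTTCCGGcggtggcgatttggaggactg
The NF-Y box CCAAT was in 13 members (39.4%), close to its 37.4% of all promoters. The site of the nuclear respiratory factor (GCGCA and GCGC with any base between) was in 6 (18.2%), against 4.60% of all promoters and 10.3% of those of tested genes, and only 1 of these 6, Psma3, rose. A match is a run of letters and no measure of binding.

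The 4 activator genes all passed, in opposite directions: 2 rose and 2 fell (50% each, against 20.8% and 19.4% of all tested genes). Psme4, the single-chain activator PA200 of the nucleus, had 120, 120 and 123 FPKM after arachidonic acid, against 78.0, 79.0 and 88.6 FPKM in vehicle. Every arachidonic acid library stood above every vehicle library, and the log2 fold change of 0.56 ± 0.07 (SE, adjusted p = 0.0021, limma) was the largest rise of any member. Psme1, the alpha subunit of the interferon-inducible activator PA28, had 72.9, 66.1 and 68.2 FPKM after arachidonic acid, against 114, 117 and 114 FPKM in vehicle. Its fall was the largest of the members, -0.73 ± 0.06 (SE, adjusted p = 0.00083), and again the groups did not overlap.

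Psme2, the beta subunit that makes the PA28 ring with Psme1, fell with it. It had 62.1, 49.3 and 53.9 FPKM after arachidonic acid, against 86.3, 85.0 and 84.9 FPKM in vehicle (log2 fold change -0.63 ± 0.09, adjusted p = 0.0033). All 3 arachidonic acid libraries lay below the vehicle libraries, with library 1 nearest to them. The ratio of Psme1 to Psme2 was 1.18, 1.34 and 1.27 after arachidonic acid and 1.32, 1.38 and 1.34 in vehicle, so the groups overlapped although both genes fell. Psme2b, a protein-coding copy 99.4% identical to Psme2 over 794 aligned bases, could share its reads. It fell as well (log2 fold change -0.79), and the sum of both was 96.4, 80.9 and 82.3 FPKM after arachidonic acid, against 144, 142 and 136 FPKM in vehicle.

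Psme3, whose protein forms the PA28 gamma activator of the nucleus and is not known as an interferon target, had 259, 244 and 254 FPKM after arachidonic acid, against 212, 204 and 216 FPKM in vehicle. The groups did not overlap, and the log2 fold change was 0.26 ± 0.06 (SE, adjusted p = 0.014). Set within each library, the ratio of Psme1 to Psme4 was 0.606, 0.552 and 0.552 after arachidonic acid, against 1.46, 1.49 and 1.28 in vehicle. The order of these activators was thus turned round: Psme4 was the more abundant per length in every arachidonic acid library and Psme1 in every vehicle library. Psme1, Psme2 and Psme4 passed in the same direction under all 14 alternative settings, and Psme3 under 12, missing without arachidonic acid library 3 (adjusted p = 0.060) and without vehicle library 2 (adjusted p = 0.064).

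**Figure D2:**
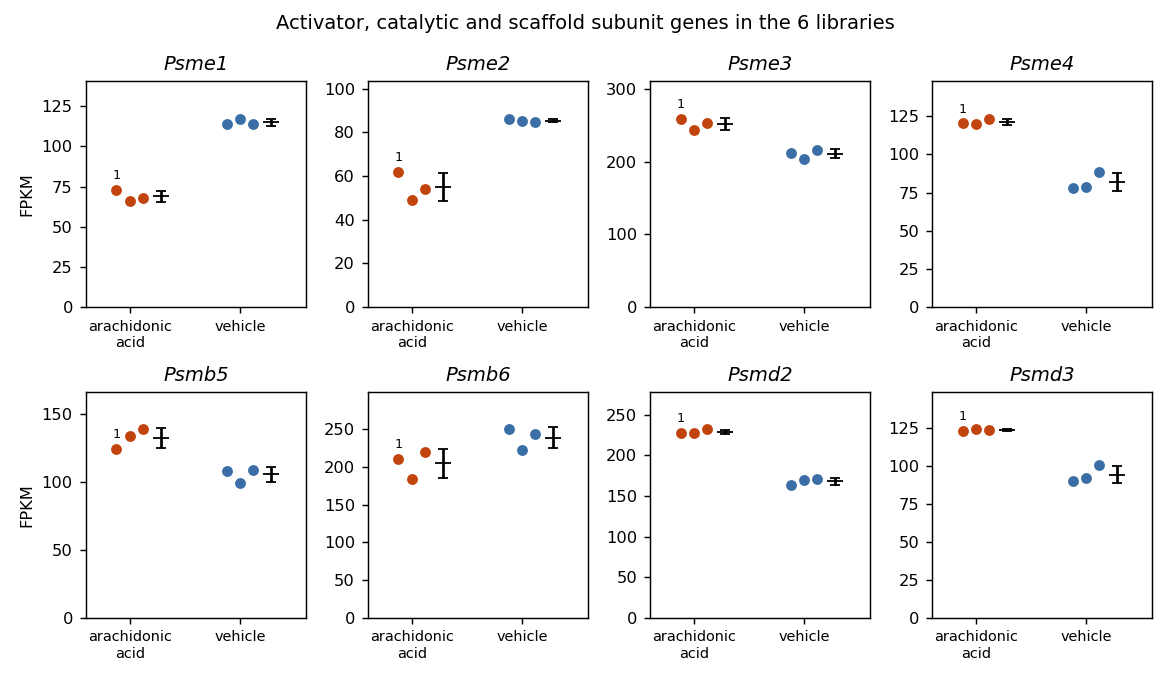
FPKM of 8 member genes in the 6 libraries, arachidonic acid (orange) left of vehicle (blue); points are libraries, the digit 1 marks arachidonic acid library 1, and the black mark and bar give the mean and SD of 3 libraries. The groups do not overlap in any of the 8 panels: Psme1, Psme2 and Psmb6 are lower after arachidonic acid and the others higher, and the difference in Psmb6 did not pass the test.

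The 3 members in the 19S base that are not ATPases all rose (100%, against 20.8% of all tested genes). Adrm1, a further base subunit that its symbol left out of the members, did not pass (log2 fold change -0.02, adjusted p = 0.85 by limma). Psmd2, the large scaffold to which shuttle proteins dock with their ubiquitinated cargo, had 227, 228 and 232 FPKM after arachidonic acid, against 163, 169 and 171 FPKM in vehicle. The libraries of each group lay close together and far from the other group, and the log2 fold change was 0.45 ± 0.05 (SE, adjusted p = 0.0021). Psmd1, the other large scaffold of the base, had 135, 114 and 117 FPKM after arachidonic acid, against 91.1, 94.3 and 103 FPKM in vehicle. Here library 1 was the highest, and the log2 fold change was 0.34 ± 0.09 (SE, adjusted p = 0.022). Without library 1 it was 0.26 and still passed (adjusted p = 0.0097), but among the fits that left out 1 library it missed without arachidonic acid library 3 (adjusted p = 0.052), vehicle library 1 (0.082) or vehicle library 2 (0.078).

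Psmd4 encodes a receptor of the cap for ubiquitin chains. It had 123, 130 and 124 FPKM after arachidonic acid, against 102, 96.3 and 97.4 FPKM in vehicle. The groups did not overlap (log2 fold change 0.35 ± 0.06, adjusted p = 0.0050), and Psmd2 and Psmd4 passed under all 14 alternatives.

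The lid carries the deubiquitinating enzyme of the cap. Its 8 member genes all had positive log2 fold changes, with a median of 0.16. Of these 8, 3 passed (37.5%, against 20.8% of all tested genes). Sem1, a lid subunit that its symbol left out of the members, did not pass (-0.07, adjusted p = 0.44 by limma). All 8 members stayed positive under the 14 alternatives, but only Psmd3 passed when any library other than arachidonic acid library 1 was left out. Psmd3, a structural lid subunit, rose the most. It had 123, 124 and 124 FPKM after arachidonic acid, against 89.8, 92.2 and 100 FPKM in vehicle, so that the arachidonic acid libraries lay within 1 FPKM of each other and above all vehicle libraries (log2 fold change 0.39 ± 0.06, adjusted p = 0.0047). Psmd8, another lid subunit, had the smallest difference: 109, 92.1 and 101 FPKM after arachidonic acid, against 98.1, 87.8 and 93.3 FPKM in vehicle, with overlapping groups (0.11 ± 0.08, adjusted p = 0.30).

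A further pair of lid genes passed by a narrow margin. Psmd7, the partner of the deubiquitinating subunit, averaged 138 ± 5.22 FPKM after arachidonic acid and 119 ± 5.35 FPKM in vehicle (SD, n = 3 each; adjusted p = 0.035 by limma), and Psmd11, a subunit that holds the cap to the core, averaged 120 ± 0.614 FPKM after arachidonic acid and 106 ± 3.11 FPKM in vehicle (adjusted p = 0.043 by limma). Each passed under 6 of the 14 alternatives. The deubiquitinating enzyme itself, Psmd14, averaged 157 ± 5.40 FPKM after arachidonic acid and 144 ± 5.48 FPKM in vehicle, with overlapping groups, and did not pass (adjusted p = 0.15 by limma). Psmd12 and Psmd13 did not pass although their groups did not overlap (log2 fold changes 0.19 and 0.16), and the groups of Psmd6 overlapped (0.12).

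The 6 ATPases, which form the ring that unfolds substrates, gave no common direction. Of these, 1 rose (16.7%, against 20.8% of all tested genes), 5 did not pass, and the median log2 fold change was 0.04. Psmc1, an ATPase whose tail opens the gate of the core, had 275, 269 and 268 FPKM after arachidonic acid, against 209, 219 and 235 FPKM in vehicle. The groups did not overlap, the log2 fold change was 0.29 ± 0.06 (SE, adjusted p = 0.013), and Psmc1 was the most abundant member after arachidonic acid. It missed without vehicle library 1 (adjusted p = 0.050) or vehicle library 2 (adjusted p = 0.056). At the other end Psmc3, which also reaches the gate, had 181, 149 and 156 FPKM after arachidonic acid, against 183, 179 and 180 FPKM in vehicle (-0.16 ± 0.08, adjusted p = 0.16).

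In Psmc3 arachidonic acid library 1 lay with the vehicle libraries and the other 2 below them. Without library 1 the log2 fold change of Psmc3 was -0.24 (adjusted p = 0.0056) and that of Psmc5 -0.20 (adjusted p = 0.018), so both passed only then among the alternatives. Psmc2 did not pass although its groups did not overlap (log2 fold change 0.21, adjusted p = 0.083), and Psmc4 and Psmc6 had values of 0.10 and -0.03 with overlapping groups.

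Core and cap are set side by side here, and the difference between their counts was not tested. Of 14 tested 20S genes 2 rose (14.3%, against 20.8% of all tested genes) and none fell (against 19.4%), with a median log2 fold change of 0.02 that turned to -0.03 under quantile normalization and -0.02 without arachidonic acid library 1. Of 17 tested 19S members 7 rose (41.2%) and none fell, with a median of 0.17 (0.12 to 0.23 over the alternatives). Adrm1 and Sem1, cap subunits outside the members, are not counted among them or in the means below. The counts depended on single libraries: without arachidonic acid library 3, 4 cap genes and 0 core genes rose, without vehicle library 1, 3 and 1, and without vehicle library 2, 3 and 0. Of all genes tested in these fits, 1712 of 12916, 1724 of 12926 and 1818 of 12925 rose, against 2690 of 12913 with every library. Without arachidonic acid library 2, 1 core gene rose, as without vehicle library 3. Without arachidonic acid library 1, 2 genes of each also fell, against 32.4% of all genes then tested. The mean level of the 14 core genes was 166, 151 and 161 FPKM after arachidonic acid and 165, 156 and 163 FPKM in vehicle, with overlapping groups. The mean of the 17 cap genes was 138, 127 and 130 FPKM after arachidonic acid, against 116, 114 and 120 FPKM in vehicle, without overlap. The ratio of cap to core within a library, which a single scaling factor per library does not change, was 0.830, 0.838 and 0.809 after arachidonic acid, against 0.702, 0.734 and 0.736 in vehicle. All 3 arachidonic acid values exceeded all vehicle values, and library 1 lay between the other 2 of its group. No p is given for these means, since they are taken over members.

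Among the catalytic subunits the members differed from each other. Psmb5, which holds the chymotrypsin-like site that proteasome inhibitors bind, had 124, 134 and 139 FPKM after arachidonic acid, against 108, 99.5 and 109 FPKM in vehicle. The groups did not overlap, and the log2 fold change was 0.32 ± 0.07 (SE, adjusted p = 0.012), missing without arachidonic acid library 3 (adjusted p = 0.055) or vehicle library 2 (adjusted p = 0.054). Psmb6, with the caspase-like site, had 211, 183 and 220 FPKM after arachidonic acid, against 250, 223 and 244 FPKM in vehicle. All its arachidonic acid values were lower, but vehicle library 2 lay within 3 FPKM of arachidonic acid library 3 and the difference of -0.22 ± 0.09 did not pass (adjusted p = 0.082).

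Psmb7, with the trypsin-like site, had 69.3, 69.0 and 66.9 FPKM after arachidonic acid and 67.3, 62.0 and 62.2 FPKM in vehicle. Its groups overlapped (0.10 ± 0.06, adjusted p = 0.23). As a result the ratio of Psmb5 to Psmb6 was 0.589, 0.730 and 0.630 after arachidonic acid, against 0.434, 0.447 and 0.445 in vehicle, with no overlap. Psmb6 passed only under quantile normalization (adjusted p = 0.037) and without arachidonic acid library 1 (adjusted p = 0.044).

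None of the 4 beta subunits without an active site passed, where 20.8% of all tested genes were higher and 19.4% lower. Psmb2 had 145, 126 and 133 FPKM after arachidonic acid and 119, 121 and 134 FPKM in vehicle (log2 fold change 0.12 ± 0.08, adjusted p = 0.27). Psmb1 had 183, 161 and 171 FPKM after arachidonic acid and 206, 182 and 178 FPKM in vehicle (-0.13 ± 0.08, adjusted p = 0.23). The groups overlapped in both, as they did in Psmb3 (0.10) and Psmb4 (-0.06).

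In the alpha ring, the gated outer ring of the core, 1 of 7 tested genes passed, as higher (14.3%, against 20.8% of all tested genes). The median log2 fold change of the ring was 0.01. Psma3 had 110, 113 and 112 FPKM after arachidonic acid, against 101, 96.8 and 99.2 FPKM in vehicle, with no overlap (0.17 ± 0.05, adjusted p = 0.042). It passed under 6 of 14 alternatives. A pseudogene, Gm13835, is identical to it over 685 aligned bases and was listed at 74.8, 70.2 and 73.1 FPKM after arachidonic acid, against 61.3, 60.1 and 67.9 FPKM in vehicle, so the split of reads between them is uncertain. Psma7 had 222, 197 and 200 FPKM after arachidonic acid and 232, 224 and 217 FPKM in vehicle (-0.12 ± 0.07, adjusted p = 0.19). Library 1 overlapped the vehicle libraries and the other 2 lay below them, and without library 1 Psma7 passed (-0.18, adjusted p = 0.026). Psma4 did not pass although its groups did not overlap (0.14), and Psma1, Psma2, Psma5 and Psma6 lay between -0.09 and 0.03 with overlapping groups.

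The 3 assembly chaperones of the base, which hold the ATPases until the cap is built and leave before it works, were the 3 least abundant of the tested members. None of them passed, where 20.8% of all tested genes were higher and 19.4% lower. Psmd9 had 26.6, 22.0 and 24.9 FPKM after arachidonic acid and 21.7, 20.8 and 24.5 FPKM in vehicle (0.13 ± 0.10, adjusted p = 0.33). Psmd10, also known as gankyrin, had 22.4, 23.1 and 22.8 FPKM after arachidonic acid and 25.6, 24.3 and 22.2 FPKM in vehicle (-0.07 ± 0.07, adjusted p = 0.45). Psmd5 averaged 37.4 ± 3.68 FPKM after arachidonic acid and 34.7 ± 1.69 FPKM in vehicle (SD, n = 3 each), and the groups of all 3 genes overlapped.

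The members were abundant and even between libraries. All 38 tested members exceeded 10 FPKM in every library. Mean levels ran between 22.8 and 270 FPKM after arachidonic acid with a median of 125 FPKM, and between 22.3 and 273 FPKM in vehicle with a median of 111 FPKM, where all tested genes had medians of 16.9 and 16.6 FPKM. Psmc1 (270 FPKM) and Psmb4 (263 FPKM) led after arachidonic acid, a difference within their spread, while Psmb4 (273 FPKM) and Psmb6 (239 FPKM) led in vehicle. Psmd9 and Psmd10 were lowest in both groups. The median coefficient of variation of a member between the 3 libraries of a group was 5.61% after arachidonic acid and 4.32% in vehicle. For all tested genes, whose median level was lower, it was 11.4% and 6.90%, and the sets were not matched for level. Together the 40 members took 0.698%, 0.651% and 0.670% of all FPKM after arachidonic acid, against 0.608%, 0.607% and 0.629% in vehicle, without overlap. As a share of the FPKM of nuclear protein-coding genes they took 0.768%, 0.701% and 0.727% after arachidonic acid and 0.684%, 0.677% and 0.703% in vehicle, where the groups overlapped.

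**Figure D3:**
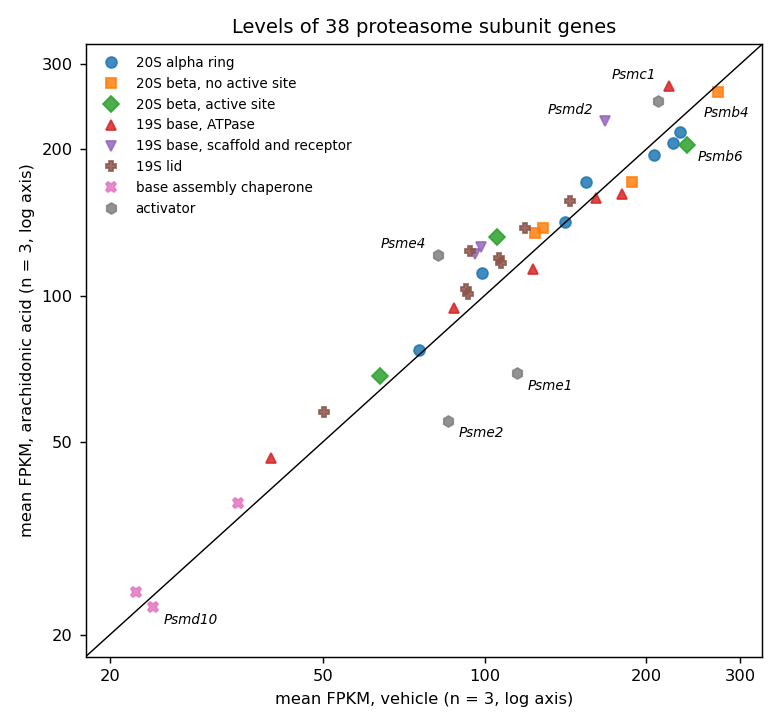
Mean FPKM of the 38 tested proteasome subunit genes after arachidonic acid (vertical, log axis) against vehicle (horizontal, log axis), 3 libraries each; the line marks equal levels and the markers the roles. Most members lie along the line between 22.3 and 273 FPKM, Psme1 and Psme2 lie well below it, and Psme4 and Psmd2 lie above it.

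Arachidonic acid library 1 stood high in many of the members, though not in all. It was the highest of its group in 26 of 38 members and the highest of all 6 libraries in 19. Among the other arachidonic acid libraries, library 2 was the lowest of its group in 29 members. The same counts were not made over all tested genes, so whether these positions are particular to the members was not tested.

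The immunoproteasome subunits, which were not members, were all lower after arachidonic acid. Psmb10 had 39.9, 25.3 and 27.5 FPKM after arachidonic acid, against 74.7, 68.3 and 75.2 FPKM in vehicle, with no overlap (log2 fold change -1.24 ± 0.16, adjusted p = 0.0027). Psmb9 had 2.79, 1.34 and 1.39 FPKM after arachidonic acid, against 5.77, 6.54 and 6.11 FPKM in vehicle, with no overlap (-1.36 ± 0.20, adjusted p = 0.0036). Psmb8 had 0.462, 0.0194 and 0.156 FPKM after arachidonic acid, about 28.2, 0.8 and 9.1 fragments, against 1.68, 1.77 and 1.56 FPKM in vehicle, about 75.5, 78.0 and 72.2 fragments. Its mean was under the minimum for the test. The 3 immunoproteasome genes and the members Psme1 and Psme2, all known interferon targets, were thus lower in every arachidonic acid library than in any vehicle library.

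Each of these genes was set against the constitutive subunit whose place it takes. Psmb8 per 100 FPKM of Psmb5 was 0.372, 0.0145 and 0.113 after arachidonic acid, against 1.55, 1.78 and 1.43 in vehicle. The mean difference was -4.22 on the log2 scale, with a two-sided exact permutation p of 0.10, the smallest that 3 against 3 libraries can give, and it was -2.95 without arachidonic acid library 2, which held about 0.8 fragments of Psmb8. Psmb9 per 100 FPKM of Psmb6 was 1.33, 0.733 and 0.634 after arachidonic acid, against 2.31, 2.94 and 2.50 in vehicle. Psmb10 per 100 FPKM of Psmb7 was 57.5, 36.7 and 41.1 after arachidonic acid, against 111, 110 and 121 in vehicle. In all 3 ratios the groups did not overlap, and library 1 lay nearest to vehicle.

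**Figure D4:**
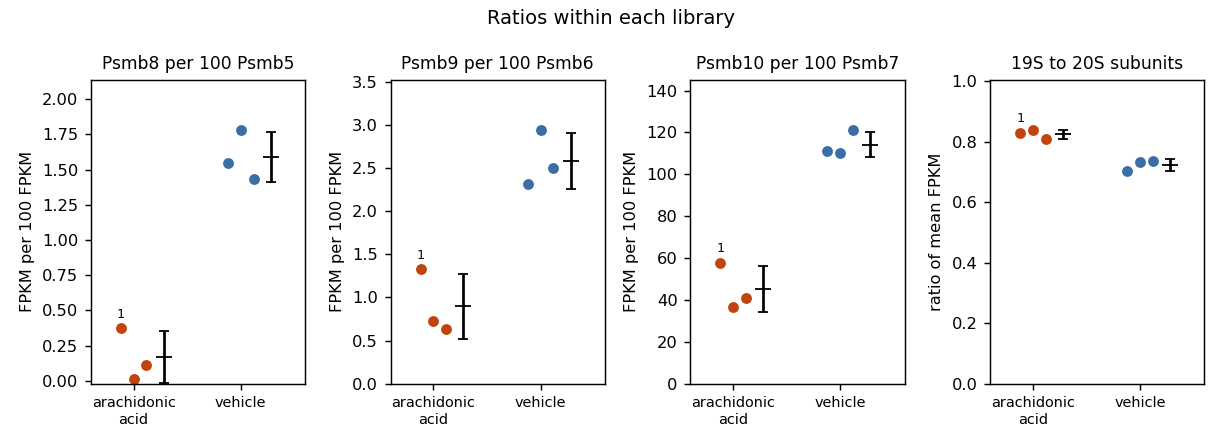
Ratios within each library, arachidonic acid (orange) left of vehicle (blue): FPKM of each immunoproteasome subunit per 100 FPKM of the constitutive subunit it replaces, and the mean FPKM of 17 cap genes over that of 14 core genes. Points are libraries, the digit 1 marks arachidonic acid library 1, and the black mark and bar give the mean and SD of 3 libraries; the 3 immunoproteasome ratios are lower and the cap to core ratio higher after arachidonic acid, without overlap.

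Genes that build, escort or serve the proteasome split in direction. Of 15 tested assembly factors and partners 2 rose and 2 fell (13.3% each, against 20.8% and 19.4% of all tested genes), with a median log2 fold change of 0.00. Usp14, a deubiquitinase bound to the cap, had 90.0, 95.6 and 92.7 FPKM after arachidonic acid, against 56.6, 64.0 and 63.4 FPKM in vehicle (0.59 ± 0.07, adjusted p = 0.0019). Zfand5, a zinc finger protein known to stimulate the proteasome, rose by 0.63 ± 0.09 (adjusted p = 0.0033). Psmg4, a chaperone of core assembly, had 28.0, 22.6 and 23.5 FPKM after arachidonic acid, against 39.0, 43.4 and 47.3 FPKM in vehicle (-0.79 ± 0.11, adjusted p = 0.0030), and its fellow chaperone Psmg1 fell less (-0.24 ± 0.07, adjusted p = 0.026) and passed under 8 of 14 alternatives. Pomp, which matures the core, had 101, 87.2 and 93.4 FPKM after arachidonic acid and 91.1, 90.7 and 93.4 FPKM in vehicle (0.03 ± 0.07, adjusted p = 0.74), a difference whose sign changes under quantile normalization and without library 1.

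In the list around NRF1 and NRF2, 7 of 15 genes rose (46.7%, against 20.8% of all tested genes) and none fell, with a median of 0.25. The count was 4 without arachidonic acid library 2 or 3 or vehicle library 1, and 5 without vehicle library 2 or 3. These fits also called fewer of all tested genes higher. Without arachidonic acid library 1, 8 rose and 2 fell, against 27.5% and 32.4% of all genes then tested. Nfe2l1 had 70.4, 86.1 and 82.3 FPKM after arachidonic acid, against 55.4, 61.6 and 58.5 FPKM in vehicle, and Nfe2l2 had 119, 133 and 125 FPKM after arachidonic acid, against 74.7, 87.1 and 81.9 FPKM in vehicle. Neither pair of groups overlapped, with log2 fold changes of 0.43 ± 0.09 (adjusted p = 0.011) and 0.63 ± 0.08 (adjusted p = 0.0024). Their small partner proteins Maff (1.49 ± 0.20) and Mafg (0.89 ± 0.17) rose too, while Ddi2, the protease that activates NRF1, did not pass (-0.35, adjusted p = 0.085). Without arachidonic acid library 1, Ddi2 passed as lower (-0.50, adjusted p = 0.00059 by limma).

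All 9 known NRF2 targets rose (100%, against 20.8% of all tested genes). Their median log2 fold change was 2.50, far from the 0.12 of the proteasome subunits. The list was chosen with earlier results of these data known, so the count is not independent support. In all 9, arachidonic acid library 1 was the lowest of its group, and without this library the median was 2.96. Slc7a11, the cystine transporter, rose by 4.48 ± 0.38, Srxn1, which repairs peroxiredoxins, by 2.93 ± 0.23, Osgin1, an oxidative stress gene, by 1.68 ± 0.15 and Gsta4, which conjugates lipid aldehydes to glutathione, by 1.23 ± 0.13.

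Of 14 shuttle proteins and cofactors of the p97 segregase, which pulls tagged proteins out of complexes, 4 rose (28.6%, against 20.8% of all tested genes) and 1, Ubqln4, fell (7.14%, against 19.4%), with a median of 0.15. Without arachidonic acid library 1, 6 rose and 2 fell, against 27.5% and 32.4% of all genes then tested. Only 2 rose without arachidonic acid library 3 or vehicle library 2, fits that also called fewer of all tested genes higher. The rises were in Ubxn1 (0.67), the shuttle Ubqln1 (0.45), Plaa (0.41) and Nploc4 (0.28). Among the ubiquitin and ubiquitin-activating genes, Ubb fell (-0.46 ± 0.10) and Uba1, which activates ubiquitin, did not pass (0.13). Of the 9 genes of the COP9 signalosome, a complex built like the lid, Cops8 (0.25) and Gps1 (0.20) rose, 22.2% and so close to the 20.8% of all tested genes. Cops6 (-0.13) and Cops2 (0.14) did not pass, and the median was -0.00, against 0.16 for the 8 lid members. Plaa and Ubqln1 passed under all 14 alternatives, Ubxn1 and Nploc4 under 10, Ubb under 11, Gps1 under 8, Ubqln4 under 7 and Cops8 under 6; the misses came mainly when 1 library was left out.

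**Figure D5:**
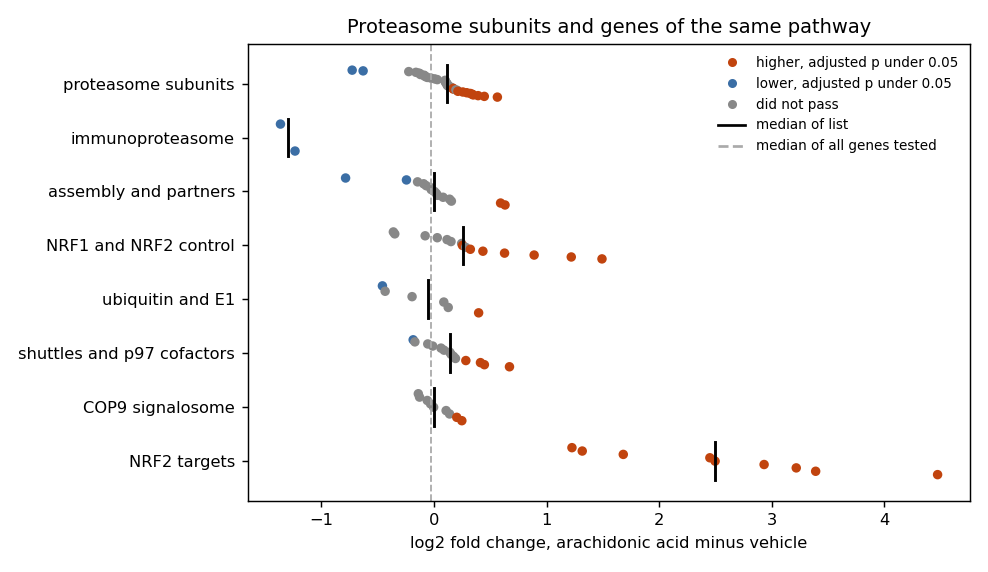
Log2 fold change of each tested gene, arachidonic acid minus vehicle, in the proteasome subunit genes and 7 lists of related genes; points are coloured by their call, black lines are list medians and the dashed line is the median of all tested genes, -0.03. The subunit genes cluster near their median of 0.12, while all 9 NRF2 targets lie above 1 and both tested immunoproteasome genes lie below -1.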

How the data were processed

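The authors deposited 1 table of FPKM per library, which they made by dividing the fragments of a gene by its length and by the fragments of the library, as inferred from the values. The submitters' processing notes name featureCounts 1.5.0-p3, HISAT2 2.0.5 and StringTie 1.3.3b, with no role or order. No source used here gives the genome build, the annotation or the use of strand. Symbols, types and mean transcript lengths came from GENCODE M21 and covered 53360 of 53953 rows. FPKM times length fell on whole fragments (within 0.1) for 96.3% to 96.7% of values under 100 fragments, which gave the depth.

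Log2(FPKM + 1) of the 12913 genes whose mean reached 1 FPKM was fitted with limma 3.58.1 (R 4.3.3) with a trend. P-values are two-sided, with Benjamini-Hochberg adjustment across these genes. Log2 fold changes, arachidonic acid minus vehicle, understate on this scale the changes of low genes. The fit was tested on simulated data. The members and lists were chosen with earlier results of these data known. Values in every library are given by rule for Psmb5, Psmb6 and Psmb7, for the highest and lowest log2 fold change in each role and for up to 4 genes of smallest p per related list; the 4 activators and the members that passed were added after their values were seen. Transcripts were compared with blastn 2.17.0 (at least 95% identity over 300 bases): 7 members had a copy above 1 FPKM. Of the 16 assembly factors and partners, Paaf1 is not analysed here. Some genes of the related and marker lists are not reported here. Alternatives were leaving out each library, a replicate block, limma-voom on the recovered fragments, scaling by quantiles, TPM or median of ratios, 0.1 as pseudocount, a minimum of 5 FPKM, and no filter.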

Additional observations from a re-analysis of the deposited data

How the results depend on the processing

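Over the 14 alternatives the members that rose numbered 4 to 14 and those that fell 2 to 6. Leaving out 1 library at a time gave 4 (without vehicle library 2: Psmd2, Psmd3, Psmd4 and Psme4) to 11 higher members, 2 to 6 lower members (6 without arachidonic acid library 1) and 2969 to 7746 called genes in all, against 5192 with every library. Scaling mattered for small changes: quantile normalization gave 8 higher and 3 lower members, and rescaling to TPM 14 and 2; the median of all genes then moved by -0.06 and 0.03 on the log2 scale relative to no change. The log2 fold change of Pomp was 0.03 with every library, -0.023 under quantile normalization and -0.022 (without arachidonic acid library 1) to 0.082 (without arachidonic acid library 2) when 1 library was left out; the cause was not tested. Of 615 values of named genes under alternatives, 560 kept direction and side of the threshold.

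With the replicate number as a block, 7 members were higher and 2 lower. Deviations of libraries with the same number correlated at -0.081, 0.21 and -0.062, and those with different numbers at -0.18 to 0.19. With 3 libraries per group, these values cannot decide whether the numbers pair the samples.

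Depth did not limit the tested members, which had 1020 to 16059 fragments per library. It limits Psmb8, Psmb11 and Psma8.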
